A study of Mus musculus with 10 samples.

Results

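The genes described here are 10 phosphatase and Sprouty family genes known as feedback regulators of MAP kinase signaling, most of them of the extracellular signal-regulated kinase (ERK) pathway. They are 6 dual-specificity phosphatases (Dusp1, Dusp2, Dusp4, Dusp5, Dusp6 and Dusp10), 2 Sprouty genes (Spry1 and Spry2) and 2 Sprouty-related genes with an EVH1 domain (Spred1 and Spred2). They were chosen by name, and no value enters the rule, but earlier results of these data were known when they were chosen. All 10 were found once each among the 57825 genes of the deposited expression table, and all 10 passed the filter on low values that kept 15710 genes for testing. The libraries were made from total RNA of purified mouse CD8+ T cells that had been co-cultured with 4T1 cells, a mammary carcinoma line of Balb/c origin. The 5 CD8+4T1 samples received no sodium acetate and the 5 CD8+4T1+NaAc samples received 5 mM sodium acetate (NaAc). Per the study's methods, the T cells came from spleens of Balb/c mice, with an age of 7 to 8 weeks given for the mice of the study. Activation on anti-CD3-coated plates, with anti-CD28 antibody and interleukin 2 (IL-2) in the medium, took 12 h. Treatment with NaAc, where given, followed for 24 h, and contact with 4T1 cells came after it for 48 h. The labels give day 3 for all samples. All 10 samples therefore share T cell receptor activation and contact with tumor cells, and no sample without either was part of the comparison. The question of the comparison is which transcripts differ when T cells are treated with acetate and then face tumor cells.

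ERK is switched on in T cells when the antigen receptor activates Ras, which acts through the kinases RAF and MEK, and ERK then drives immediate early genes such as those of the FOS and EGR families. DUSP phosphatases remove the activating phosphates from ERK, p38 or JNK kinases, and many DUSP genes are themselves transcribed in response to the kinase they turn off. Sprouty and Spred proteins act further upstream, where they restrain the activation of Ras and RAF. In T cells these inhibitors set how long and how strongly a receptor signal reaches the nucleus.

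The start regions of 6 members are shown because 4 of these genes (Dusp1, Dusp2, Dusp10 and Spry1) differed between the groups, while Dusp5 and Dusp6 are close relatives that did not pass the test. RefSeq sequences were used (build GRCm38.p6), each being the 250 bases directly before the gene's start, read 5′ to 3′ on the gene's own strand. The windows are chr17:26508473-26508722 (minus strand) for Dusp1, chr2:127335909-127336158 (plus strand) for Dusp2, chr1:184034131-184034380 (plus strand) for Dusp10, chr3:37639697-37639946 (plus strand) for Spry1, chr19:53528895-53529144 (plus strand) for Dusp5 and chr10:99262981-99263230 (plus strand) for Dusp6. Capitals mark matches, on either strand, to TGACGTCA (cAMP response element, CRE), its core TGACG, the CCAAT box, the E-box (letters CACGTG) and the CArG box, the core of the serum response element.
Dusp1: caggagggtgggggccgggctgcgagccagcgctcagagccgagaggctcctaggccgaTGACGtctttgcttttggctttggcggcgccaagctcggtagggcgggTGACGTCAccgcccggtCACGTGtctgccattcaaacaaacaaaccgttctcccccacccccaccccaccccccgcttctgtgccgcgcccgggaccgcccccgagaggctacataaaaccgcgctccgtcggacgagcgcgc
Dusp2: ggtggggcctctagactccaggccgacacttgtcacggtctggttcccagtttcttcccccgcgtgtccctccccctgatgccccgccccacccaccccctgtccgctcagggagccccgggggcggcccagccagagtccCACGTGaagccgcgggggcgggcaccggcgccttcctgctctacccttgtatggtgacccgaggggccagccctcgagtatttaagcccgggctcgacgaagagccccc
Dusp10: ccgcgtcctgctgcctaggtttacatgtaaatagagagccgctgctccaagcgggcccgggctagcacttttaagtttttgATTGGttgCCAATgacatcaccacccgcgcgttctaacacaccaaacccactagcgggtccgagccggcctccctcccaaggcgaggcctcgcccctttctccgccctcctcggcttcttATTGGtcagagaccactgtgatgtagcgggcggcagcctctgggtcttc
Spry1: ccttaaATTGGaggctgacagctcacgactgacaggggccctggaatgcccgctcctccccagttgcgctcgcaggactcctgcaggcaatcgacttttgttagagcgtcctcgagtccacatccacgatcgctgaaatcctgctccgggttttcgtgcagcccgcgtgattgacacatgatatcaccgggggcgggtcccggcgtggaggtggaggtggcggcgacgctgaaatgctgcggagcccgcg
Dusp5: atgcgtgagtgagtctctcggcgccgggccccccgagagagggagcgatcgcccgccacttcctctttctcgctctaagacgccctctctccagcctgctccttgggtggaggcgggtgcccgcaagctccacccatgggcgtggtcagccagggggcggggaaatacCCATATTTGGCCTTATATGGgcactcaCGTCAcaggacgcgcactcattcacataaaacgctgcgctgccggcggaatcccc
Dusp6: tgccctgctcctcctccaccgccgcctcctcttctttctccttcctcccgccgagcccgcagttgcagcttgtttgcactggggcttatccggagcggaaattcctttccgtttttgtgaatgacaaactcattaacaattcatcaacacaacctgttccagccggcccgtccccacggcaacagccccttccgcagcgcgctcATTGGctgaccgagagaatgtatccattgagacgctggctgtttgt

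Of the 10 members, 9 matched an entry of the RefSeq promoter set, which held 32851 windows of this length. The entry for Dusp4 was missing. A whole CRE stood in the Dusp1 window alone among the 9, from 143 to 136 bases before the start, and 1.55% of all windows hold one. The core TGACG, which every CRE contains, was in the windows of Dusp1, Dusp5 and Spred2 and in 17.8% of all windows. The Dusp5 window held 2 adjacent CArG boxes, from 82 to 73 and from 72 to 63 bases before the start, a motif found in 1.47% of windows. CACGTG was in the Dusp1 and Dusp2 windows (6.02% of all windows), and CCAAT was in those of Dusp6, Spry1 and, with 3 copies, Dusp10 (33.85% of all windows). The AP-1 site TGANTCA and the ETS site CCGGAAG were in 0 of the 9 windows, against 6.75% and 6.91% of all windows, and the GC box GGGCGG, not marked in capitals, was in 7 of 9 (32.7% of all windows). No motif stood in all 4 windows of the genes that differed between the groups except the GC box, which the Dusp5, Spred1 and Spred2 windows held too. These matches describe letters in a window and say nothing of binding.

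Levels are given in FPKM, fragments counted in a gene relative to its length and to the sample's depth, so they can be compared between genes. The values refer to between 16306447 and 18853726 fragments per sample. The fewest fragments behind a member value were 148 (Spry1 in CD8+4T1 replicate 1) and the most 3689 (Dusp4 in the same sample). No source states that the samples came from separate animals or cultures, so p-values measure the spread between these samples, which may be technical. CD8+4T1+NaAc replicate 1 stood apart from the other libraries of its group, with 20233 genes above 0 FPKM and the largest departures from counting noise. Leaving it out changed no member's call. T cell markers summed to between 699 and 797 FPKM in CD8+4T1 samples and between 615 and 733 FPKM in CD8+4T1+NaAc samples, and Cd8a was at 78.6 and 76.5 FPKM on average, so the labelled cell type was present in both groups. Markers of 4T1 and other epithelial cells summed to between 8.18 and 18.1 FPKM without NaAc and between 64.4 and 173 FPKM with it, and all 12 of them were above 0 in at least 1 sample. These are bulk samples, in which fewer cells of a type and less RNA per cell cannot be told apart.

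With NaAc, 4 of the 10 genes were higher and none was lower. Dusp1, Dusp2, Dusp10 and Spry1 rose between 1.54-fold and 1.91-fold in mean FPKM, and in each of them every CD8+4T1+NaAc sample lay above every CD8+4T1 sample. Dusp4, Dusp5, Dusp6, Spry2, Spred1 and Spred2 did not pass the test, and their groups overlapped. The test was limma on log2(FPKM + 0.1) over all 15710 genes with Benjamini-Hochberg adjustment, a gene being called at an adjusted p under 0.05. At an unadjusted p under 0.05 the counts were the same, 4 higher and 0 lower, and limma's voom on recovered fragments also called 4 higher and 0 lower. In 4 alternatives (the replicate block and the fits without CD8+4T1 replicate 4, CD8+4T1+NaAc replicate 1 or CD8+4T1+NaAc replicate 2) 1 member was lower at an unadjusted p under 0.05. Among all genes tested, 36.5% were called, 17.6% as higher and 19% as lower, so a called share of 4 in 10 lies near the background and is not a result about these genes as a group. Among the 7800 genes whose mean reached 5 FPKM, 47.9% were called and 16.1% were called as higher. Groups that did not overlap, with NaAc on the higher side, were found for 13.1% of genes tested. The median log2 fold change was 0.08 over the 10 members and -0.02 over all genes tested. On the deposited scale 0 members passed both the test and an absolute log2 fold change over 1, as 6.47% of genes tested did. The count was 2 under each of the scalings to the same total and to T cell markers and 1 without CD8+4T1+NaAc replicate 5.

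**Figure D1:**
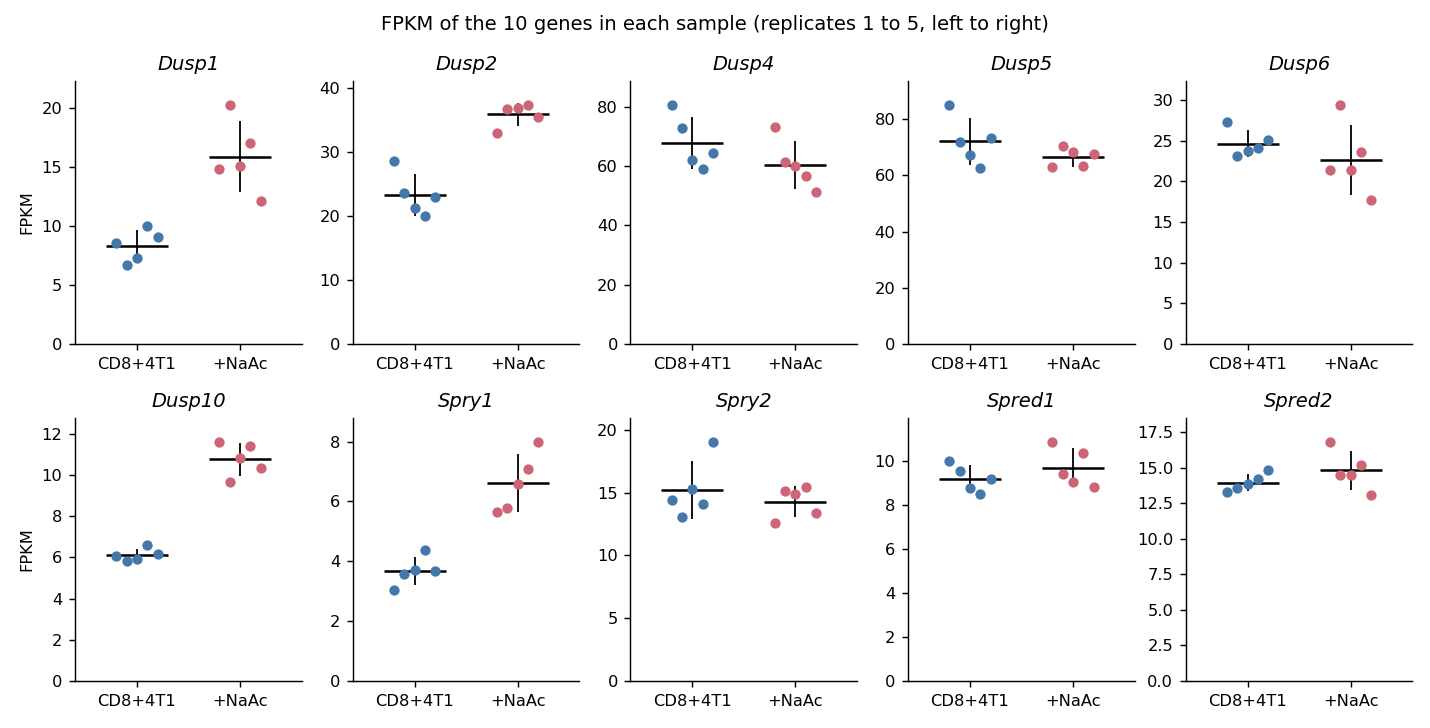
FPKM of each of the 10 genes (vertical axes, from 0, scaled per gene) in every sample, with replicates 1 to 5 of CD8+4T1 on the left and of CD8+4T1+NaAc on the right of each panel. The groups are apart for Dusp1, Dusp2, Dusp10 and Spry1 and overlap for the other 6 genes.

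Dusp1, Dusp2, Dusp4 and Dusp5 encode the inducible phosphatases of the nucleus. Dusp1 (ENSMUSG00000024190), an immediate early gene whose product acts mostly on p38 and JNK and also on ERK, was at 8.57, 6.74, 7.30, 9.97 and 9.11 FPKM in CD8+4T1 replicates 1 to 5. In CD8+4T1+NaAc replicates 1 to 5 it was at 14.9, 20.3, 15.1, 17.1 and 12.2 FPKM. The lowest sample with NaAc was still above the highest without it, and replicate 2 was the highest of all. The means were 8.34 ± 1.32 and 15.9 ± 3.005 FPKM (SD, n = 5 per group), a ratio of 1.91. Its log2 fold change was 0.92 with a standard error of 0.14 and a 95% interval from 0.60 to 1.23 (limma adjusted p = 0.000595). The exact two-sided permutation test over samples gave p = 0.00794, the smallest value that 5 against 5 samples allow. The deposited gene model of Dusp1 overlaps that of Ergic1, a gene of the early secretory pathway on the opposite strand, by 640 bases, and Ergic1 was itself higher with NaAc (7.23 and 10.3 FPKM, limma adjusted p = 0.00292). The strand setting of the counting is not given in the sources used here, so reads in the shared bases cannot be assigned to either gene. Gm50275 overlaps the Dusp1 model on the same strand by 1853 bases (0.0325 and 0.266 FPKM on average), where the strand setting could not separate the reads. Further overlapping genes, among them Gm8225 (956 bases), averaged at most 0.506 FPKM in either group.

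Dusp2 (ENSMUSG00000027368) encodes a phosphatase of ERK and p38 found mainly in activated blood cells. It was at 28.5, 23.6, 21.2, 20.03 and 23.0 FPKM in CD8+4T1 replicates 1 to 5. With NaAc it was at 32.9, 36.6, 36.9, 37.3 and 35.5 FPKM. CD8+4T1 replicate 1 was the highest and CD8+4T1+NaAc replicate 1 the lowest of their groups, so the replicates numbered 1 lay closest to each other. The means were 23.3 ± 3.25 and 35.9 ± 1.77 FPKM (SD, n = 5 per group). The log2 fold change was 0.63 with a standard error of 0.09 (95% interval 0.44 to 0.82, limma adjusted p = 0.000295), and it was 0.74 without replicate 1 of both groups.

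Dusp4 and Dusp5 were the most abundant members and did not pass the test. Dusp4 (ENSMUSG00000031530), whose product acts on ERK and JNK, was at 80.6, 72.9, 62.2, 59.1 and 64.3 FPKM in CD8+4T1 replicates 1 to 5. Its levels with NaAc were 73.0, 61.5, 60.0, 56.6 and 51.2 FPKM. Replicate 1 was the highest sample of both groups and the ranges overlapped over most of their width. The difference in log2 was -0.17 with a standard error of 0.11 and a 95% interval from -0.40 to 0.07 (limma adjusted p = 0.253). With the replicate block the interval was -0.30 to -0.03 (limma adjusted p = 0.0611), and with a sample left out the difference ranged from -0.24 (without CD8+4T1+NaAc replicate 1) to -0.10 (without CD8+4T1 replicate 1).

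Dusp5 (ENSMUSG00000034765) encodes a nuclear phosphatase that acts on ERK and not on p38 or JNK. It was at 85.0, 71.9, 67.3, 62.7 and 73.4 FPKM in CD8+4T1 replicates 1 to 5. Its levels with NaAc were 62.8, 70.2, 68.1, 63.1 and 67.4 FPKM. The samples with NaAc fell within the range of those without it. Its log2 fold change was -0.11 with a standard error of 0.08 and a 95% interval from -0.28 to 0.06 (limma adjusted p = 0.278), an interval that leaves room for small differences in both directions. Without CD8+4T1 replicate 1, its highest sample, the value was -0.05. Without CD8+4T1 replicate 4, its lowest sample, it was -0.16 (95% interval -0.32 to -0.0007, limma adjusted p = 0.115).

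Dusp6 (ENSMUSG00000019960) encodes the cytoplasmic phosphatase specific for ERK. It was at 27.3, 23.1, 23.7, 24.1 and 25.0 FPKM in CD8+4T1 replicates 1 to 5. With NaAc it was at 21.3, 29.4, 21.4, 23.6 and 17.7 FPKM. The range of the CD8+4T1+NaAc samples enclosed that of the others, with replicate 2 the highest and replicate 5 the lowest of all 10. The means were 24.6 ± 1.66 and 22.7 ± 4.29 FPKM (SD, n = 5 per group), with a log2 fold change of -0.14 (95% interval -0.39 to 0.11, limma adjusted p = 0.380). These outer samples set the value, which was -0.23 without CD8+4T1+NaAc replicate 2 (95% interval -0.42 to -0.05, limma adjusted p = 0.0583) and -0.05 without CD8+4T1+NaAc replicate 5.

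Dusp10 (ENSMUSG00000039384) encodes a phosphatase of p38 and JNK, the stress kinases, rather than of ERK. It was at 6.08, 5.84, 5.93, 6.60 and 6.16 FPKM in CD8+4T1 replicates 1 to 5. With NaAc it was at 11.6, 9.68, 10.8, 11.4 and 10.4 FPKM. Each group was narrow, and the distance between them was several times the spread within either. The means were 6.12 ± 0.296 and 10.8 ± 0.794 FPKM (SD, n = 5 per group), a ratio of 1.76. The log2 fold change of 0.80 had the smallest standard error of the 10 members, 0.06 (95% interval 0.67 to 0.94), and their lowest adjusted p (limma, 1.68e-05). A gene on the opposite strand, 1700056E22Rik, overlaps the model of Dusp10 by 1272 bases and was itself higher with NaAc (0.991 and 1.68 FPKM on average, log2 fold change 0.75, limma adjusted p = 0.0395). Reads in those shared bases cannot be assigned to either gene.

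Among the Sprouty genes, Spry1 rose and Spry2 did not pass the test. Spry1 (ENSMUSG00000037211), an inhibitor of receptor signaling to Ras and ERK that is induced in activated T cells, was at 3.05, 3.57, 3.71, 4.39 and 3.67 FPKM in CD8+4T1 replicates 1 to 5. In the presence of NaAc it was at 5.66, 5.77, 6.59, 7.08 and 7.998 FPKM. All samples with NaAc were above all samples without it, although Spry1 was the least abundant member in both groups. The means were 3.68 ± 0.477 and 6.62 ± 0.971 FPKM (SD, n = 5 per group), a ratio of 1.80. Its log2 fold change was 0.83 with a standard error of 0.12 (95% interval 0.57 to 1.08, limma adjusted p = 0.000333).

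Spry2 (ENSMUSG00000022114), a related inhibitor, was at 14.4, 13.1, 15.3, 14.1 and 19.1 FPKM in CD8+4T1 replicates 1 to 5. With NaAc it was at 12.6, 15.1, 14.9, 15.5 and 13.4 FPKM. CD8+4T1 replicate 5 was the highest sample, and the other 9 were mixed. The log2 fold change was -0.08 (95% interval -0.30 to 0.14, limma adjusted p = 0.565), and without CD8+4T1 replicate 5 it was 0.004.

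The Spred genes, whose products bring neurofibromin to the membrane to turn off Ras, were close to equal in both groups. Spred1 (ENSMUSG00000027351) was at 10.03, 9.54, 8.80, 8.50 and 9.20 FPKM in CD8+4T1 replicates 1 to 5 and at 10.9, 9.42, 9.05, 10.4 and 8.82 FPKM with NaAc. Spred2 (ENSMUSG00000045671) was at 13.3, 13.6, 13.8, 14.2 and 14.8 FPKM without NaAc and at 16.9, 14.5, 14.5, 15.2 and 13.1 FPKM with it. In both genes CD8+4T1+NaAc replicate 1 was the highest sample, and the groups overlapped. The log2 fold change was 0.07 for Spred1 (95% interval -0.09 to 0.23, limma adjusted p = 0.464) and 0.08 for Spred2 (95% interval -0.06 to 0.23, limma adjusted p = 0.352). These were the narrowest intervals among the members that were not called. With a sample left out, the values ranged from 0.03 to 0.11 for Spred1 and from 0.04 to 0.13 for Spred2, in both lowest without CD8+4T1+NaAc replicate 1 and highest without CD8+4T1+NaAc replicate 5.

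The deposited scale bears on the 6 genes that were not called. The listed genes held between 95.5% and 97.9% of the fragments in CD8+4T1 samples and between 89.8% and 92.1% in CD8+4T1+NaAc samples. When FPKM were rescaled to the same total in every sample, the middle of all tested genes went from a log2 fold change of -0.02 to one of 0.15, and when they were scaled to T cell markers it went to 0.17. Dusp4 then stood at 0.01 and 0.03, Dusp5 at 0.06 and 0.08, Dusp6 at 0.04 and 0.06 and Spry2 at 0.10 and 0.11. Their log2 fold changes thus turned from negative to positive under both scalings without being called. Spred2 was called as higher under both (0.26 and 0.28, limma adjusted p = 0.0134 and 0.0352), and Spred1 under the same total only (0.25, limma adjusted p = 0.0400). Over all alternatives, left-out samples included, the limma adjusted p ran from 0.0400 to 0.728 for Spred1 and from 0.0134 to 0.808 for Spred2. Whether the Spred genes passed the test thus depended on the scale. The members called as higher then numbered 6 under the same total and 5 under T cell marker scaling, where 31.2% and 30.7% of all genes were called as higher. Of all calls, 48.1% were on the higher side as deposited, 77.9% under the same total and 80.9% under T cell marker scaling. Dusp1, Dusp2, Dusp10 and Spry1 were called under both scalings, with log2 fold changes between 0.81 (Dusp2, same total) and 1.11 (Dusp1, T cell markers). Scaling by median ratios went the other way for the genes not called as deposited. It put Dusp4 at -0.18, Dusp5 at -0.13, Dusp6 at -0.15 and Spry2 at -0.10. Spred1 was then at 0.06 and Spred2 at 0.07, and none of these genes was called.

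**Figure D2:**
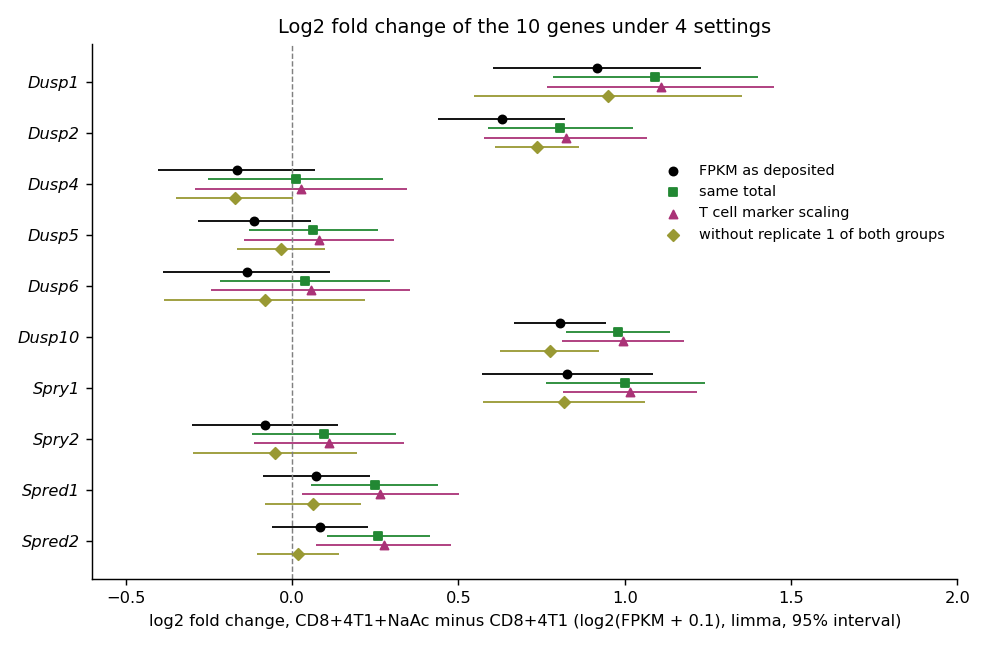
Log2 fold change of each gene, CD8+4T1+NaAc minus CD8+4T1, with its 95% limma interval. The settings are FPKM as deposited, scaled to the same total, scaled to T cell markers, and without replicate 1 of both groups. The intervals of Dusp1, Dusp2, Dusp10 and Spry1 stay above 0 under all 4 settings. The points of Dusp4, Dusp5, Dusp6 and Spry2 are above 0 under the 2 scalings and below 0 in the other settings.

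Ratios of relatives within a sample do not depend on the scaling. These 3 pairs were chosen after the values were seen, each setting a gene that rose beside a relative that did not pass the test. The ratio of Dusp1 to Dusp6 lay between 0.292 and 0.414 (median 0.314) in CD8+4T1 samples and between 0.687 and 0.725 (median 0.696) with NaAc. The ratio of Dusp2 to Dusp5 lay between 0.313 and 0.335 (median 0.319) without NaAc and between 0.522 and 0.591 (median 0.526) with it. The ratio of Spry1 to Spry2 lay between 0.192 and 0.311 (median 0.243) without NaAc and between 0.381 and 0.596 (median 0.450) with it. In these 3 pairs the groups did not overlap. Over all 45 pairs of members 24 did not overlap, a count that was not taken over pairs of all genes. Nearly all of these pairs set a called gene beside one not called, so the count largely restates the 4 calls. The ratio of Dusp2, which rose, to Spred2, which was not called, did overlap (1.41 to 2.15 without NaAc and 1.95 to 2.70 with it). Of all other genes tested, 12.3% were higher with NaAc without overlap when divided by Dusp6, 15% when divided by Dusp5 and 13.1% when divided by Spry2. The ratios of Dusp1 to Dusp6 with NaAc were tighter than the levels of either gene, since both were high in replicate 2 and low in replicate 5.

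**Figure D3:**
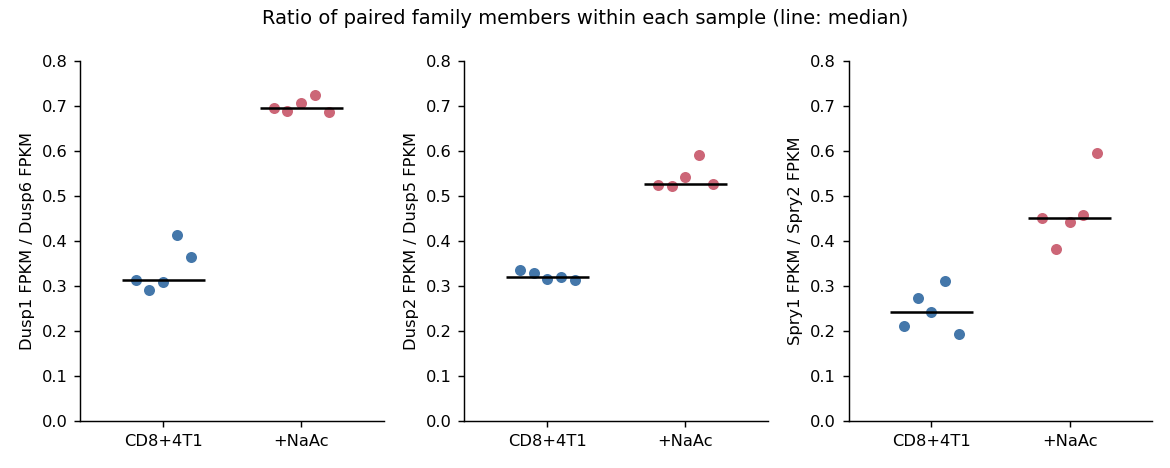
Ratio of FPKM between relatives in each sample (Dusp1 to Dusp6, Dusp2 to Dusp5, Spry1 to Spry2), for CD8+4T1 and CD8+4T1+NaAc, with the median of each group as a line. The highest ratio without NaAc is below the lowest with it in all 3 panels.

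In order of mean level, CD8+4T1 samples held Dusp5, Dusp4, Dusp6, Dusp2, Spry2, Spred2, Spred1, Dusp1, Dusp10 and Spry1. The ranges of Dusp5 and Dusp4, of Dusp6 and Dusp2, of Spry2 and Spred2 and of Spred1 and Dusp1 overlapped. Within single libraries of that group, Dusp5 was above Dusp4 and Spred1 above Dusp1 in 4 of 5 samples. Dusp6 was above Dusp2 and Spry2 above Spred2 in 3 of 5. With NaAc, Dusp2 stood above Dusp6 with no overlap, and Dusp1 moved up to the level of Spred2 and Spry2. The ranges of Dusp5 and Dusp4, of Dusp6 and Dusp1, of Dusp1 and Spred2, of Spred2 and Spry2 and of Dusp10 and Spred1 overlapped in that group. Within single libraries, however, Dusp6 was above Dusp1 and Dusp10 above Spred1 in 5 of 5 samples with NaAc. Dusp5 was above Dusp4 in 4 of them, Dusp1 above Spred2 in 3 and Spred2 above Spry2 in 1. The sum over the 10 genes lay between 224 and 277 FPKM (median 244) without NaAc and between 238 and 272 FPKM (median 257) with it, so the total pool of these transcripts overlapped between the groups. Its make-up differed: Dusp4 and Dusp5 together held between 54.4% and 59.8% of the sum without NaAc and between 46.5% and 51.7% with it. The 4 genes that rose held between 16.3% and 18.3% without NaAc and between 24.8% and 28.3% with it, shares that the choice of those 4 fixes in part.

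Within the groups the members did not move as a block. Departures from the group means, on the log2 scale over all 10 samples, had a Pearson r of 0.91 for Dusp2 and Dusp5, 0.81 for Dusp1 and Dusp6 and 0.80 for Dusp4 and Spred1. For Dusp4 and Spry1 it was -0.91. These are descriptions over samples that share a library each, with 45 pairs of members looked at. CD8+4T1 replicate 1 was the highest of its group for Dusp2, Dusp4, Dusp5, Dusp6 and Spred1. CD8+4T1+NaAc replicate 5 was the lowest of its group for Dusp1, Dusp4, Dusp6, Spred1 and Spred2 and the highest for Spry1. No single library was thus high or low for all 10 genes.

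Levels of 4T1 and epithelial markers moved with the groups and, in part, with Dusp1 and Dusp6. Of the 12 markers, 7 passed the filter, and 5 of them (Krt8, Krt18, Krt7, Cldn3 and Lcn2) were called as higher with NaAc and none as lower, where 17.6% of all genes tested were called as higher. Krt7 and Cldn3 averaged under 0.5 FPKM without NaAc and passed the filter through the NaAc group, so they had to be higher there and their calls carry no weight. The summed level of the 12 markers with NaAc was 73.5, 173, 101, 127 and 64.4 FPKM in replicates 1 to 5. Across these 5 samples, looked at after the values were seen, Dusp1 and Dusp6 followed the order of the marker sum in 10 of 10 pairs of samples, an order that 1.75% of genes tested showed in full. Spry2 followed it in 8 pairs, Dusp2 and Dusp5 in 7, Dusp4, Spred1 and Spred2 in 6, and Dusp10 and Spry1 in 4. Without NaAc, where the marker sum was at most 18.1 FPKM, Dusp1 followed it in 6 and Dusp6 in 5 of 10 pairs. Spred2 there followed it in 9, Spry1 in 7 and the other members in 3 to 6 pairs. The lowest marker sum with NaAc was above the highest without it. The part of 4T1 transcripts in the difference of Dusp1 was not tested, and neither was their part in those of Dusp2, Dusp10 and Spry1. Markers of fibroblasts and mesenchyme also differed, with sums from 1.85 to 3.27 FPKM without NaAc and from 14.7 to 29.8 FPKM with it, mostly of Fn1, while Col3a1 was at 0 in all samples.

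**Figure D4:**
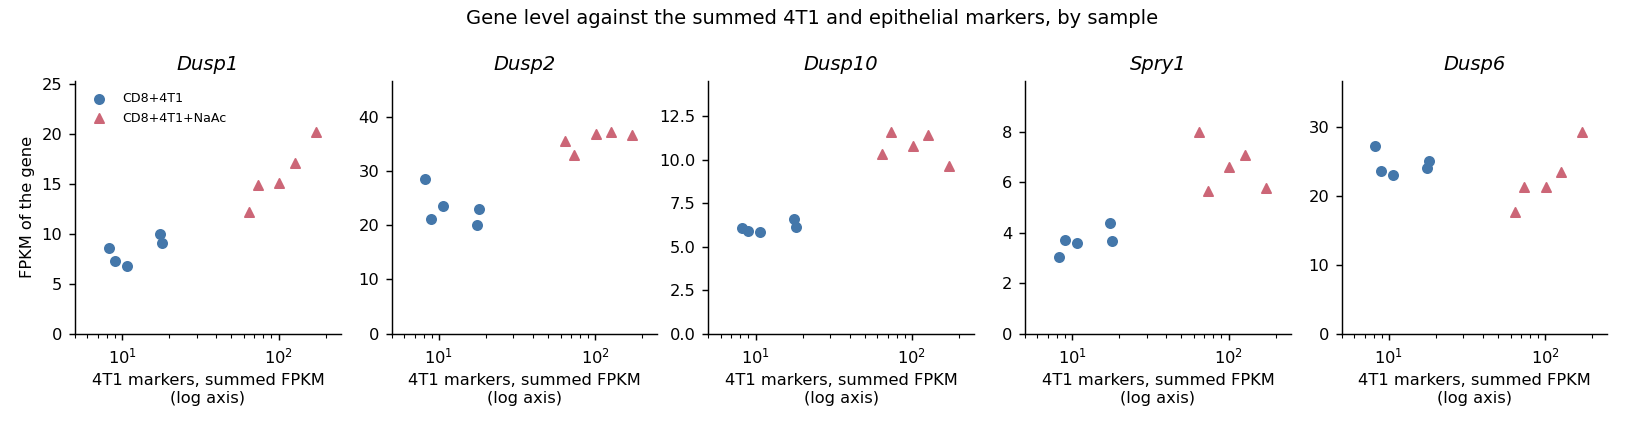
FPKM of single genes (vertical axes) against the summed FPKM of 12 4T1 and epithelial markers (horizontal log axis), 1 point per sample and a symbol per group. Marker sums of the groups do not overlap (8.18 to 18.1 and 64.4 to 173 FPKM), and among CD8+4T1+NaAc samples Dusp1 and Dusp6 increase with the sum in all 10 pairs of samples.

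Further relatives of the members were at 5.89 FPKM or less on average in either group. Of 7 further MAP kinase phosphatase and Sprouty family genes, 6 were listed and tested, and the median log2 fold change was 0.41. Of these, 2 were called as higher with NaAc and 0 as lower (limma). Over all genes tested, 36.5% were called in either direction and 17.6% as higher. Dusp9, which encodes a cytoplasmic phosphatase of ERK, was at 1.11 ± 0.402 and 2.93 ± 0.753 FPKM (SD, n = 5 per group), with a log2 fold change of 1.38 (limma adjusted p = 0.00382). Spred3 was at 4.02 ± 0.196 and 5.89 ± 1.35 FPKM (SD, n = 5 per group; limma adjusted p = 0.0110). Dusp7, Dusp8, Dusp16 and Spry4 were not called as deposited. Dusp7 was called under the same total (limma adjusted p = 0.0438) but not under T cell marker scaling (limma adjusted p = 0.0636). Without CD8+4T1+NaAc replicate 5 the list held 4 called genes. Dusp16, a JNK phosphatase, was nearly equal in both groups, at 5.32 and 5.31 FPKM.

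The kinases and adaptors of the pathway went both ways, and their counts turned with the scale. Of 16 genes of the cascade from Lat to ERK, 6 were called as lower, 2 as higher and 8 as neither (limma), against 36.5% called over all genes tested, and 9 had a log2 fold change above 0 (median 0.03). The Ras genes Hras and Nras fell by 0.51 and 0.38 on the log2 scale. The adaptors Lat and Grb2, which link the T cell receptor to Ras, fell by 0.40 and 0.44 on that scale, and Map2k1, encoding MEK1, fell by 0.25. Rasgrp1, the exchange factor that loads Ras after receptor activation, rose by 0.34, and the scaffold gene Ksr1 rose by 0.29. Mapk3, an ERK gene, was not called as deposited (log2 fold change 0.08) but was under the same total (0.26, limma adjusted p = 0.0400). It was not called under T cell marker scaling (0.27, limma adjusted p = 0.0697). Under the same total 7 genes were called as higher and 3 (Lat, Hras and Nras) as lower, and under T cell marker scaling 6 were higher and 2 (Lat and Hras) lower. Of all genes tested, 31.2% and 30.7% were called as higher under these scalings.

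Transcripts that ERK signaling is known to induce went both ways. Of 16 such genes, 15 were tested, 4 were called as higher with NaAc and 2 as lower (limma), with a median log2 fold change of 0.13. A called share of 6 in 15 lies near the 36.5% of all genes. Under the same total 7 were higher and 2 lower, and both under T cell marker scaling and with the replicate block 6 were higher and 2 lower. The same total and T cell marker scaling called 31.2% and 30.7% of all genes tested as higher. Fos was at 5.97 ± 1.46 and 35.1 ± 10.4 FPKM (SD, n = 5 per group), a log2 fold change of 2.52. Fosb (1.71), the survival gene Ier3 (1.34) and the cyclin gene Ccnd1 (2.68) were the others that rose. The 4T1 and epithelial markers Krt8 (3.33), Krt18 (2.89) and Lcn2 (3.28) rose between the same samples, and their part in the rise of these 4 genes was not tested. Egr1 and Egr3, zinc finger factors induced by T cell receptor signaling, fell by 0.74 and 0.96 on the log2 scale, and the groups did not overlap for either. Myc was at 72.4 and 80.8 FPKM and was not called as deposited. Beside Dusp1, an immediate early gene like Fos and Egr1, Fos thus lay on the same side and Egr1 on the other. This held as deposited, under the same total and under T cell marker scaling.

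**Figure D5:**
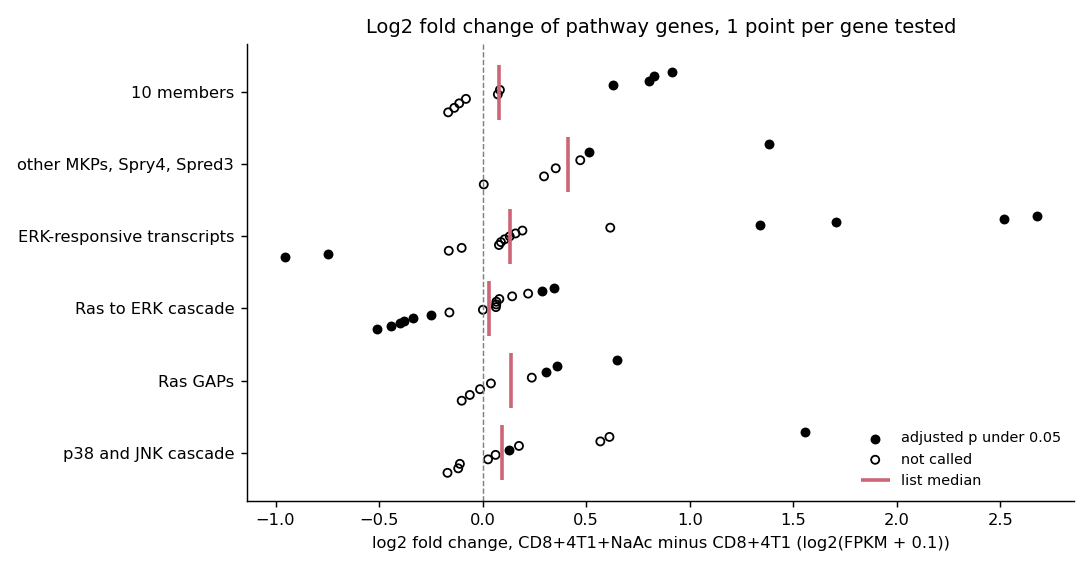
Log2 fold change (horizontal axis, CD8+4T1+NaAc minus CD8+4T1) of each tested gene in 6 lists, with filled points for genes called at an adjusted p under 0.05, open points for the rest and a bar at each list's median. The Ras to ERK list holds 6 of its 8 called genes below 0, and the ERK-responsive list holds called genes on both sides.

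The genes whose levels were most like each member's over the 10 samples were taken from 7052 protein-coding genes averaging 5 FPKM or more, by Pearson r on the log2 scale. For the 4 genes that rose these were Igsf8 (0.99) and Csf1 (0.98) for Dusp1, Efr3a (0.99) and Camk2g (0.98) for Dusp2, Plxnd1 (0.996) and Plcg1 (0.99) for Dusp10, and Myb (0.99) and Wdr83 (0.99) for Spry1. For Dusp10, Plcg1 encodes the phospholipase that couples the T cell receptor to calcium and Ras signaling. These correlations hold the difference between the groups, which many genes share. For the others, where the groups overlapped, they were Ppcs (0.94) for Dusp4, Timeless (0.92) for Dusp5, Nop56 (0.90) for Dusp6, Tor1aip2 (0.89) for Spry2, F2r (0.90) for Spred1 and Trak1 (0.93) for Spred2.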

How the data were processed

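The authors prepared NEBNext Ultra libraries and sequenced them on a NovaSeq instrument. The submitters' processing notes name fastp, HISAT2 2.0.5, StringTie 1.3.3b and featureCounts 1.5.0-p3. The authors deposited FPKM for 57825 genes, 1 column per sample and not pooled, beside gene position and length, an other, unnormalized column. Genome build and strand setting are not given in the sources used here, and 0 of the 10 members have the start and end listed for GRCm38 in GENCODE M21, so deposited positions are not printed. FPKM times length, scaled by the fragments per sample that the values refer to, gave whole fragments for 100% of values (within 0.1 of a whole number).

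The 15710 genes whose mean reached 0.5 FPKM entered limma 3.58.1 (R 4.3.3), fitted to log2(FPKM + 0.1) with variance trend, robust moderation and Benjamini-Hochberg adjustment. Fold changes on this scale understate those of low genes. The step was tested on simulated data. The members and gene lists were chosen with earlier results of these data known. All 10 members are named, called genes of each list may be named (some genes of the lists are counted but not reported here by themselves), and the genes most like each member are the top 2 by Pearson r (at least 5 FPKM). Alternatives were pseudocounts of 1 and 0.01, no filter, a mean of at least 5 FPKM, scaling to the same total, to T cell markers or by median ratios, plain limma, protein-coding genes alone, voom on recovered fragments, a replicate block and left-out samples. Motifs were searched in Python 3.11.15 and figures drawn with matplotlib 3.10.9.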

Additional observations from a re-analysis of the deposited data

How the results depend on the processing

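Dusp1, Dusp2, Dusp10 and Spry1 kept their direction and their call in all 11 alternatives over all samples and in all 10 fits that left out a sample. Their log2 fold changes ranged from 0.85 to 1.11, 0.61 to 0.82, 0.72 to 0.99 and 0.70 to 1.02 over the alternatives, and from 0.82 to 1.01, 0.58 to 0.71, 0.78 to 0.84 and 0.76 to 0.89 with a sample left out. The count of members called as higher was 4 in all fits with a sample left out, and no member was called as lower in any alternative. The genes called as higher and lower numbered 2764 and 2978. With a mean of at least 5 FPKM, fewer genes were tested and 1257 were higher. Scaling to the same total gave 4900 higher and 1387 lower, and scaling to T cell markers 4818 and 1139, as both raise the values with NaAc. Scaling by median ratios gave 2617 higher and 3177 lower. Leaving out each sample gave 2347 to 3379 higher and 2526 to 3551 lower. Called genes of the p38 and JNK list numbered 2, and from 1 to 6 over the alternatives. Between the groups, deviations of samples sharing a number correlated only weakly (from -0.03 to 0.07). The best match had the same number for replicates 1 and 4 but not for replicates 2, 3 and 5. The sources used here do not say whether the numbers pair the samples. With 5 samples per group, such small correlations cannot decide it. With the replicate block 4 members were higher and 0 lower, and 2551 and 2848 genes were called. Depth limits Spry1 most, at 148 to 386 fragments per sample.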

Other observations

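Of 8 genes for Ras GTPase activating proteins, which switch Ras off beside the Sprouty and Spred proteins, 3 were called as higher with NaAc and 0 as lower (limma). Of all genes tested, 36.5% were called in either direction and 17.6% as higher. The count was 5 under the same total and under T cell marker scaling, where 31.2% and 30.7% of all genes tested were called as higher. Among genes with a mean of 5 FPKM or more it was 1, where 47.9% were called and 16.1% were called as higher. Rasa3 was at 17.3 and 21.5 FPKM, Rasal1 at 1.86 and 3.01 FPKM and Dab2ip at 2.86 and 3.72 FPKM on average, and for all 3 the groups overlapped. Of 10 genes of the p38 and JNK cascade, on which Dusp1 and Dusp10 act, 2 were called as higher and 0 as lower (limma), where 17.6% of all genes tested were called as higher. Under the same total and under T cell marker scaling 6 were higher, where 31.2% and 30.7% of all genes tested were. With the replicate block 1 was higher. Mapk13, a p38 kinase gene, was at 0.982 and 3.16 FPKM, and Mapk14, the main p38 kinase gene, was at 24.4 and 26.6 FPKM on average, a log2 fold change of 0.13.

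Of 10 T cell markers, 6 were called as lower and 1, Zap70, as higher (limma), with a median log2 fold change of -0.28, where 19% of all genes tested were called as lower. Under the same total 3 were higher, where 31.2% of all genes tested were, and 4 lower (median -0.10). With T cell marker scaling 3 were higher and 2 lower (median -0.08), a balance that scaling to T cell markers fixes in large part. Of the 8 myeloid markers 3 were tested, and S100a8 (0.398 and 2.94 FPKM on average, limma adjusted p = 0.00181) and Lyz2 (0.536 and 1.12 FPKM, limma adjusted p = 0.0328) were called as higher, where 17.6% of all genes tested were. S100a9 was at 0 in all samples. S100a8 averaged under 0.5 FPKM without NaAc and so passed the filter only through the group where it was high, and its call carries no weight. The sum of the list, mostly Cd68 (25.8 and 22.8 FPKM, not called), lay between 23.2 and 30.9 FPKM without NaAc and between 25.7 and 30.1 FPKM with it. B cell markers summed to at most 4.91 and 6.22 FPKM and NK cell markers to at most 0.160 and 0.292 FPKM. Cd4 and Foxp3 together summed to between 0.469 and 1.08 FPKM without NaAc and between 1.47 and 2.01 FPKM with it.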
